A study of Hyacinthus orientalis with 189 samples.

Results

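'Peter Stuyvesant' is a dark purple cultivar of the common hyacinth, Hyacinthus orientalis, and its perianth (the ring of petal-like tepals) was followed from green bud to open flower. Its members were the 27 libraries whose labels name this cultivar, of 189 libraries of 7 cultivars, and they came from 9 of the 63 flowers. The other 6 cultivars, used for comparison, included 'Jan Bos' (red), 'Pink Pearl' (pink) and 'Gipsy Queen' (orange). The rest were 'City of Haarlem' (yellow), 'China Pink' (pinkish white) and 'Delft Blue' (blue). The groups were Stage B (green flower buds), Stage C (coloured flower buds) and Stage A (flowers in full anthesis), with 3 flowers at each stage. Each flower gave 3 libraries, 1 from the outer perianth lobes, 1 from the inner perianth lobes and 1 from the perianth tube in which the lobes are joined below. All plants grew outdoors from bulbs that had been imported, dipped in a fungicide, stored in the cold and planted in the same winter, and stamens and pistils were taken out before the RNA was prepared. The labels call the flowers of a stage biological replicates but do not say whether they came from separate bulbs. The p-values of the stage tests below thus measure the spread between these flowers. Those of the test of tube against lobes measure the spread of partitions within flowers. Stage names rest on how the bud looked. Perianths were collected in January and February, and neither the day nor the hour is given for a stage. The paper's gel records of RNA are also grouped by stage. In the stage changes below, development and the time of collection or handling of the RNA cannot be told apart.

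A hyacinth bud is green because its young tepals hold chloroplasts, with chlorophyll bound to light-harvesting proteins and photosystems. As it opens, chlorophyll is dismantled, the cells enlarge by loosening their walls and taking up water and sugar, and purple anthocyanins are built from phenylalanine and stored in the vacuole. Phenylalanine ammonia-lyase (PAL) opens this route, chalcone synthase (CHS) and chalcone isomerase (CHI) form the flavonoid skeleton, the hydroxylases F3H, F3'H and F3'5'H set its pattern, dihydroflavonol reductase (DFR) and anthocyanidin synthase (ANS) give the coloured pigment, and glucosyltransferases (3GT) and acyltransferases make it stable. Open hyacinths are strongly scented. Scent volatiles are mostly terpenes and benzenoids, and benzenoids too are made from phenylalanine.

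The 27 libraries held between 12896517 and 17124422 estimated counts each (median 13851074), and 63.76 to 70.37% of their read pairs mapped to the assembled unigenes (clusters of transcripts that stand in for genes). The counts of a flower's 3 libraries were summed, and values below are CPM (counts scaled to a common total) of that sum, scaled by edgeR's TMM factors. A sum over a list or an enzyme takes in all its unigenes, tested or not, and carries no test of its own. Unigenes can be pieces or near-identical copies of 1 gene, so the counts and shares of list members below may count a gene more than once. TMM factors differed by stage, 1.23 to 1.26 at Stage B, 0.956 to 1.10 at Stage C and 0.770 to 0.783 at Stage A. Without them the median log2 fold change over all tested unigenes was -0.32 in place of -0.04 for Stage C against Stage B and -0.45 in place of -0.04 for Stage A against Stage C. Changes below are relative to the TMM scale. A library stood apart, the inner lobes of Stage A flower 3, with 76407 detected unigenes against a median of 150489. Detected unigenes at very low counts numbered 1353 in that library, 9641 in the tube of the same flower and 6284 in the outer lobes of Stage B flower 1. The Stage C libraries had between 20157 and 31639.

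Markers of tissue identity were read in every flower. Unigenes annotated as B-class MADS-box factors, which give tepals and stamens their identity, summed to 618, 579 and 608 CPM at Stage B, 811, 1065 and 534 CPM at Stage C and 331, 313 and 322 CPM at Stage A. C-class factors, which mark stamens and carpels, summed to 10.1, 13.8 and 9.81 CPM at Stage B, 9.29, 7.96 and 9.22 CPM at Stage C and 12.3, 13.6 and 20.1 CPM at Stage A, and 2 of 7 were upregulated at Stage A against Stage C. Their mean level was 26.1 CPM in the tube at Stage A (the filaments join the perianth there in hyacinth), against 8.14 CPM in the outer lobes. Unigenes with pollen or tapetum names were 4 higher and 5 lower of 29 at Stage C and 3 higher and 0 lower at Stage A, with summed levels between 368 and 1187 CPM. Over all tested unigenes, 6.95% were higher and 7.53% lower at Stage C against Stage B, and 11.8% and 13.9% at Stage A against Stage C. The part that the pollen, tapetum and C-class transcripts had in any result was not tested. Potyvirus transcripts, which reached 85744 CPM in a Stage A flower of another cultivar, stayed between 0.0164 and 0.152 CPM in all 9 'Peter Stuyvesant' flowers (scaled over all 63 flowers).

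The position of each flower between green bud and anthesis was read on an axis over 78860 unigenes. It set the mean Stage B flower of the 6 cultivars other than the flower's own at 0 and their mean Stage A flower at 1. Each cultivar was thus scored on its own axis, and the axes of the other cultivars take in the 'Peter Stuyvesant' flowers. On these unlike axes the mean of the open flowers ran from 0.817 in 'City of Haarlem' to 1.15 in 'China Pink'. The 3 Stage B flowers of 'Peter Stuyvesant' lay at -0.0167, -0.00353 and -0.0303. Its Stage C flowers lay at 0.247, 0.228 and 0.460, and its Stage A flowers at 0.946, 0.910 and 0.986. The 3 stages did not overlap, and Stage C flower 3 stood further along than the other two coloured buds. The mean of the Stage C flowers was 0.312 ± 0.129 (SD, n = 3), against 0.745 over the 18 Stage C flowers of the other cultivars, each on the axis of its own cultivar. Their cultivar means ran between 0.633 in 'Jan Bos' and 0.915 in 'China Pink'. The difference of -0.43 was the most extreme of all splits of these flowers (exact permutation test, two-sided, p = 0.000752, the smallest it allows), although flowers of 1 cultivar are not independent of each other. Leaving out 1 of the 3 flowers at a time moved it between -0.51 and -0.39.

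**Figure D1:**
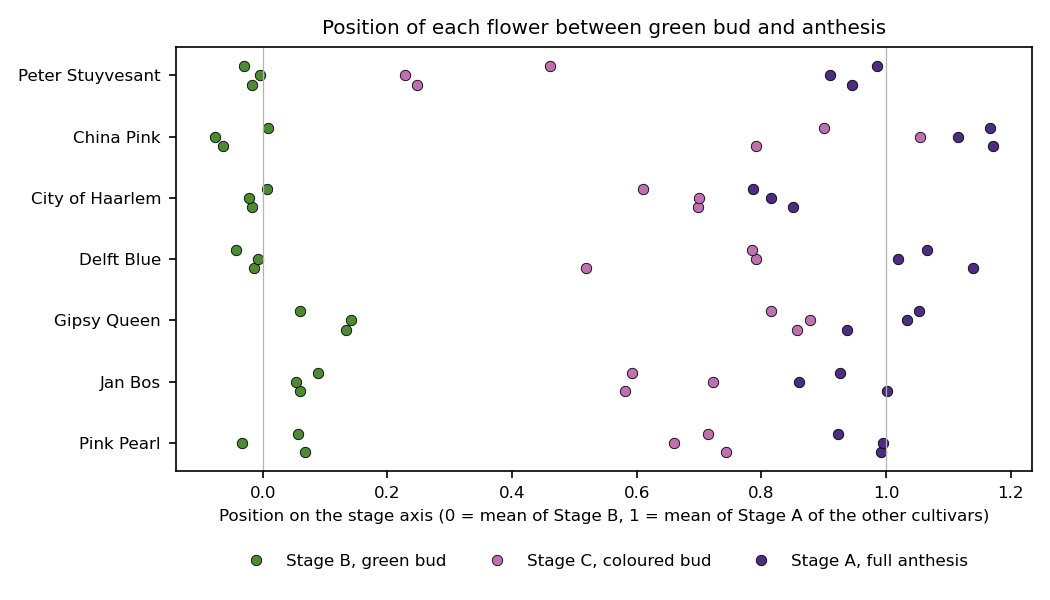
Position of each of the 63 flowers between green bud (0) and anthesis (1), on an axis drawn from the cultivars other than its own. Each point is 1 flower, rows are cultivars and colours are stages, with 'Peter Stuyvesant' on top. Its Stage C flowers sit at 0.228 to 0.460, while the means of the other cultivars at that stage lie between 0.633 and 0.915.

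The first comparison asked what changed as the green bud coloured. At Stage C against Stage B, unigenes of light harvesting and photosystems, chlorophyll synthesis, cell division and histones were far more often downregulated than upregulated. Unigenes of late anthocyanin enzymes, pigment regulators, scent enzymes, aquaporins, pectin enzymes and the cuticle were more often upregulated. Over all unigenes, 7988 of 114942 tested were upregulated (6.95%) and 8651 downregulated (7.53%; differentially expressed at an adjusted p under 0.05 with a change of over 1 on the log2 scale, edgeR's quasi-likelihood test with Benjamini-Hochberg adjustment, on flowers). Scaled to total counts without TMM, the split was 5230 up and 14528 down. Leaving out Stage B flower 2, Stage B flower 3 or Stage C flower 3 took the number downregulated to 5669, 4445 or 5518. In bulk tissue, a transcript falls alike whether fewer cells hold it or each cell holds less, and these cannot be told apart.

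The second comparison asked what changed between the coloured bud and the open flower. At Stage A against Stage C, unigenes of PAL, F3H, scent enzymes, NAC factors and of proteases and autophagy were more often upregulated than downregulated. Unigenes of photosystems, chlorophyll synthesis, pectin enzymes, aquaporins and the cuticle were more often downregulated. Here 13557 unigenes were upregulated (11.8%) and 15959 downregulated (13.9%), a split that was 8656 and 26015 on total counts. Without Stage A flower 3, which holds the library that stood apart, the numbers were 10412 and 13041. The plot of list members by direction sets each list beside these shares.

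**Figure D2:**
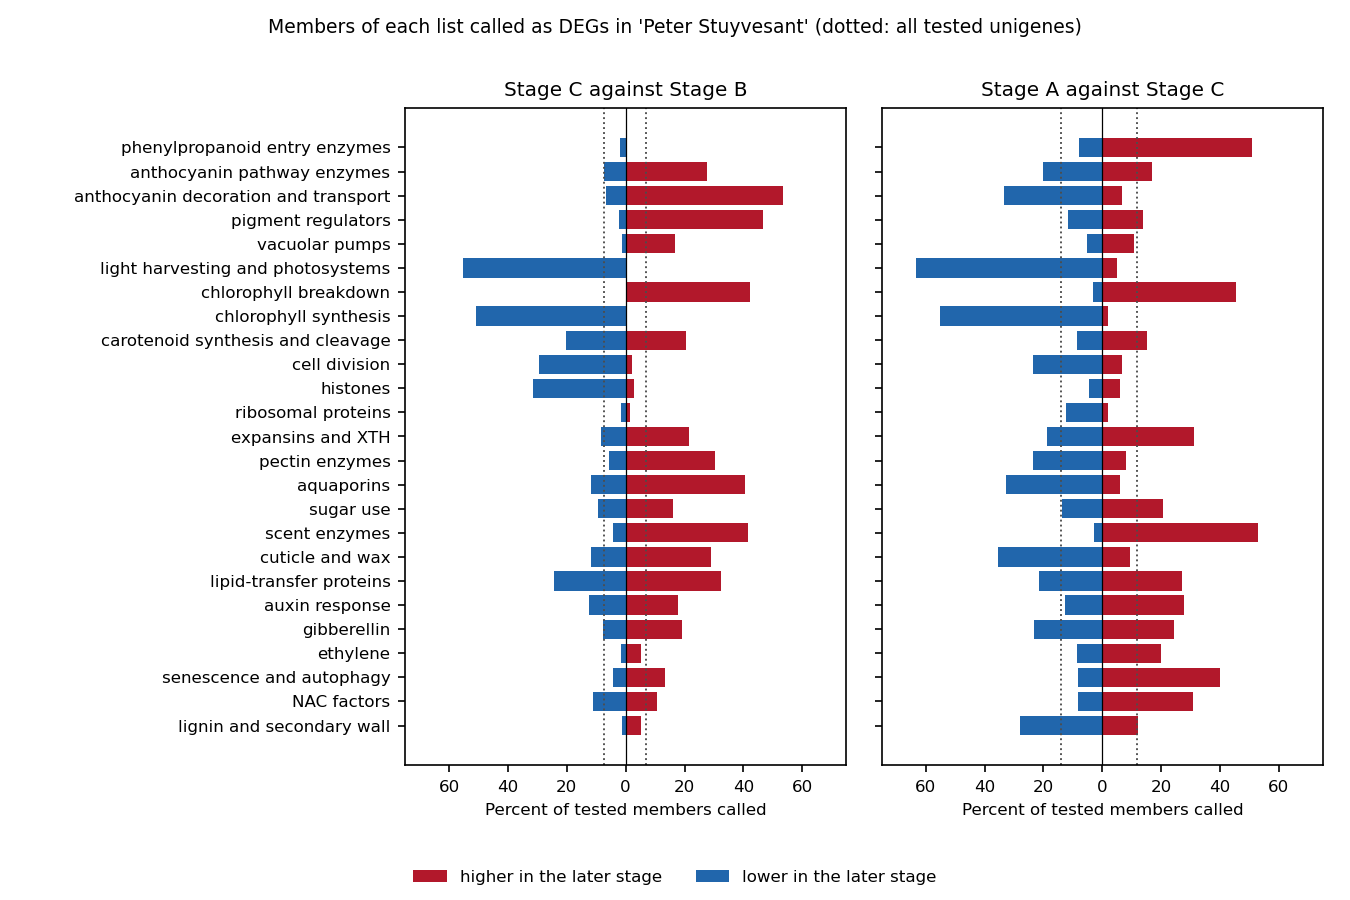
Share of the tested members of each gene list that were upregulated or downregulated, in percent, for Stage C against Stage B and Stage A against Stage C; dotted lines mark the share over all 114942 tested unigenes. Photosystem members were downregulated in 101 and 116 of 183 cases and scent enzyme members upregulated in 30 and 38 of 72.

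Light-harvesting transcripts were abundant in the green bud, and most tested members were downregulated in both steps. Of 183 tested unigenes of light-harvesting proteins, photosystem subunits and RuBisCO, 101 were downregulated and 1 was upregulated at Stage C against Stage B, with a median log2 fold change of -1.24 (-0.04 over all unigenes). At Stage A against Stage C 116 were down and 9 up (median -2.49, against -0.04 over all). Summed, the list held 36276, 27246 and 25948 CPM at Stage B, 11275, 14566 and 5002 CPM at Stage C and 1309, 1595 and 1181 CPM at Stage A. The coloured buds thus still carried several times the level of open flowers, and Stage C flower 3 had the least of them. The most abundant per length, chlorophyll a-b binding protein 40 (Cluster-20417.239876), an antenna protein of photosystem II, had 867, 444 and 332 CPM at Stage B, 117, 214 and 43.4 CPM at Stage C and 1.26, 2.55 and 0.970 CPM at Stage A. It fell by 2.13 ± 0.52 (SE) on the log2 scale at Stage C (edgeR adjusted p = 0.0148) and by 6.29 ± 0.65 at Stage A against Stage C (edgeR adjusted p = 3.64e-05). The first of these calls was lost without Stage B flower 1 or Stage C flower 1. The unigene of chlorophyll a-b binding protein 25 (Cluster-20417.238670) carried 6452, 3530.4 and 4704 CPM at Stage B, 868, 1875 and 359 CPM at Stage C and 16.8, 25.3 and 10.1 CPM at Stage A. It was called lower in both steps (log2 fold change -2.24 ± 0.51 (SE), edgeR adjusted p = 0.0105; log2 fold change -5.89 ± 0.61 (SE), edgeR adjusted p = 3.52e-05).

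Unigenes of chlorophyll synthesis were mostly downregulated in both steps, and many of chlorophyll breakdown were upregulated. Of 49 unigenes of chlorophyll synthesis, 25 were downregulated at Stage C and 27 at Stage A, with 0 and 1 upregulated. Protochlorophyllide reductase (Cluster-20417.237869), the light-driven step of that pathway, had 686, 592 and 596 CPM at Stage B, 75.5, 79.997 and 20.5 CPM at Stage C and 15.996, 21.2 and 14.6 CPM at Stage A. No values overlapped between Stage B and Stage C (log2 fold change -3.41 ± 0.41 (SE), edgeR adjusted p = 2.60e-04). Of 33 breakdown unigenes, 14 were upregulated and 0 downregulated at Stage C, and 15 and 1 at Stage A. Their sum was 173, 182 and 145 CPM at Stage B, 309, 348 and 1109 CPM at Stage C and 3956, 3763 and 3533 CPM at Stage A, and among the coloured buds flower 3 had by far the most. STAY-GREEN (Cluster-20417.202553), which takes magnesium out of chlorophyll and opens its breakdown, had 0.230, 0.753 and 0.0170 CPM at Stage B, 3.01, 0.113 and 104 CPM at Stage C and 689, 632 and 715 CPM at Stage A. It was called higher at each step (log2 fold change 6.74 ± 1.73 (SE), edgeR adjusted p = 0.0182; log2 fold change 4.26 ± 1.44 (SE), edgeR adjusted p = 0.0401), with Stage C flower 2 inside the range of the green buds. The first call was lost without Stage B flower 1, Stage B flower 3 or Stage C flower 3, and the second without any 1 of the Stage A flowers, Stage B flower 2 or Stage C flower 1. Without Stage C flower 3, 12 breakdown unigenes were upregulated at Stage C.

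**Figure D3:**
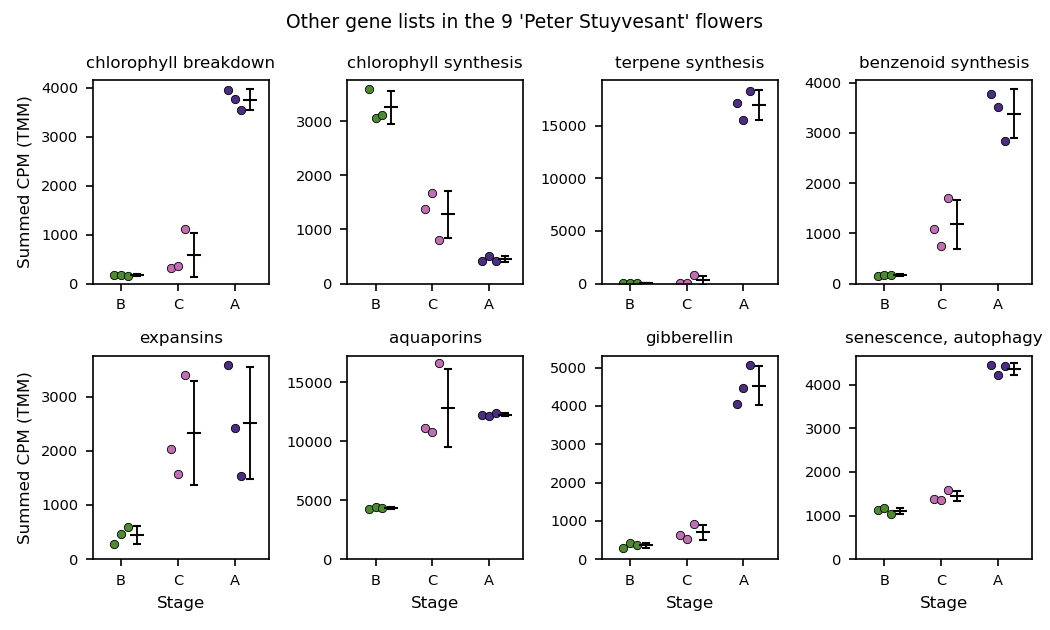
Summed level of 8 gene lists in each 'Peter Stuyvesant' flower, in TMM-scaled CPM, by stage from green bud (B) to anthesis (A); points are flowers and bars the mean ± SD (n = 3). Chlorophyll breakdown and terpene enzymes are low in every green bud, higher in coloured bud flower 3 than in the other coloured buds, and highest in the open flowers.

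The anthocyanin route did not move as 1 block. PAL, its entry, was upregulated at anthesis in most tested unigenes, with summed levels of 792, 1296 and 1746 CPM at Stage B, 849, 954 and 1449.9 CPM at Stage C and 8602, 8736 and 8077 CPM at Stage A. Of 37 tested PAL unigenes, 0 were upregulated and 1 downregulated at Stage C, and 26 up and 3 down at Stage A. A PAL unigene (Cluster-20417.236691) had 187, 183 and 171 CPM at Stage A, against 7.68, 7.26 and 14.9 CPM at Stage C (log2 fold change 4.18 ± 0.43 (SE), edgeR adjusted p = 3.42e-05). The next enzyme of the route, cinnamate 4-hydroxylase (C4H), summed to 179.6, 182 and 217 CPM at Stage B, 136, 179 and 111 CPM at Stage C and 94.9, 112 and 102 CPM at Stage A, with 0 up and 0 down of 13 at Stage C and 0 and 1 at Stage A. Unigenes of 4-coumarate-CoA ligase summed to 1.65, 1.74 and 1.82 CPM at Stage B, 2.88, 2.26 and 5.05 CPM at Stage C and 6.74, 6.04 and 6.79 CPM at Stage A, and the 1 tested was not called. Members were found by words in the Swiss-Prot description, so this low sum may leave out unigenes of the ligase. Many PAL unigenes are short pieces of near-identical copies, among which reads may have been split, so that their sum is more certain than any single one.

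The first flavonoid enzymes were already abundant in green buds. CHS summed to 3281, 3085 and 3223 CPM at Stage B, 2783, 3491 and 2905 CPM at Stage C and 1955, 1772 and 2268 CPM at Stage A. CHI summed to 2306, 2343 and 2347 CPM at Stage B, 2855, 2654 and 2779.8 CPM at Stage C and 1664, 1543 and 1478 CPM at Stage A. Of 24 CHS unigenes, 2 were upregulated and 2 downregulated at Stage C, and 3 and 6 at Stage A. The main CHS unigene (Cluster-20417.238528) and the main CHI unigene (Cluster-20417.239136) did not pass the fold threshold in either step, and held 1881, 2592 and 1812 and 2234, 2162 and 2217 CPM in the coloured buds. F3'H, which leads toward cyanidin, was scarce, at a sum of 56.2, 50.2 and 61.2 CPM at Stage C.

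Among the later enzymes, more unigenes were upregulated than downregulated at Stage C. F3H summed to 69.02, 159 and 58.3 CPM at Stage B, 1244, 505 and 2506 CPM at Stage C and 12649.6, 13346 and 8402 CPM at Stage A. Of its 11 tested unigenes 6 were upregulated at Stage C and 7 at Stage A, with 1 downregulated in each step. The main one, F3H1 (Cluster-20417.239532), was called higher at each step, at Stage C (log2 fold change 4.02 ± 0.57 (SE), edgeR adjusted p = 7.42e-04) and at Stage A (log2 fold change 3.00 ± 0.55 (SE), edgeR adjusted p = 0.0015). F3'5'H, the hydroxylase that leads to the blue-purple delphinidin pigments, summed to 99.6, 189 and 83.3 CPM at Stage B, 722, 441 and 1260.2 CPM at Stage C and 1643, 1666 and 1562 CPM at Stage A. All 7 of its tested unigenes were upregulated at Stage C and 0 at Stage A.

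DFR, which commits the route to anthocyanin, summed to 81.7, 156 and 72.1 CPM at Stage B, 614, 274 and 1066 CPM at Stage C and 551, 547 and 594 CPM at Stage A, with 5 of 13 unigenes upregulated at Stage C and 2 downregulated at Stage A. Both tested ANS unigenes were upregulated at Stage C and 1 at Stage A, with sums of 183, 432 and 120 CPM at Stage B, 1149.8, 380 and 1419 CPM at Stage C and 3211, 3125 and 2372 CPM at Stage A. The ANS sums of Stage C and Stage B overlapped, since Stage C flower 2 lay below Stage B flower 2. For 3GT 4 of 12 unigenes were upregulated and 2 downregulated at Stage C, and the main one (Cluster-20417.240155) had 432, 197 and 692 CPM at Stage C, against 109, 178 and 95.3 CPM at Stage B (log2 fold change 1.79 ± 0.37 (SE), edgeR adjusted p = 0.00653). The call of the main ANS unigene (Cluster-20417.239592) at Stage C was lost without Stage B flower 1, Stage B flower 3, Stage C flower 1 or Stage C flower 3. In DFR, ANS and 3GT alike Stage C flower 2 was the lowest coloured bud and flower 3 the highest. Among the 94 unigenes of the whole list, 26 were upregulated and 7 downregulated at Stage C (median log2 fold change 0.10), and 16 and 19 at Stage A (median -0.36; 12 and 33 on total counts).

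**Figure D4:**
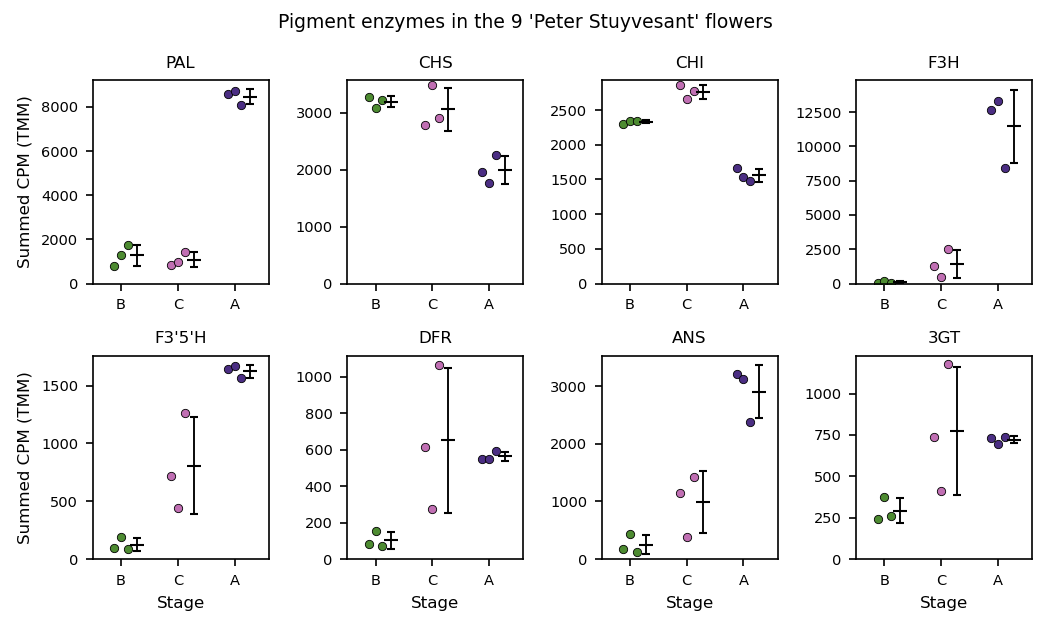
Summed level of 8 enzymes of the anthocyanin route in each flower of 'Peter Stuyvesant', in TMM-scaled CPM, by stage from green bud (B) to anthesis (A); points are flowers and bars the mean ± SD (n = 3). CHS and CHI are high at every stage, DFR and 3GT are highest in coloured bud flower 3, and PAL and F3H are highest at anthesis.

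Enzymes that decorate and carry the pigment were upregulated mostly at Stage C. The list held 15 tested unigenes for glucosyl or acyl transfer onto anthocyanins or for anthocyanin-type glutathione S-transferases. Among these, 8 were upregulated and 1 downregulated at Stage C, and 1 and 5 at Stage A. Glutathione S-transferases of the kind that carry anthocyanin to the vacuole summed to 60.7, 61.03 and 71.5 CPM at Stage B, 133, 140.3 and 138 CPM at Stage C and 65.1, 53.3 and 42.1 CPM at Stage A. A malonyltransferase unigene (Cluster-20417.238341) had 237, 121 and 304 CPM at Stage C, against 51.3, 81.96 and 49.8 CPM at Stage B (log2 fold change 1.85 ± 0.33 (SE), edgeR adjusted p = 0.00282). Of 43 unigenes annotated as MYB, bHLH or WD40 pigment regulators, 20 were upregulated and 1 downregulated at Stage C, and 16 of those upregulated were MYB factors. The unigene matching MYB114 (Cluster-20417.247286), in Arabidopsis a relative of the PAP activators of anthocyanin genes, had 47.4, 37.9 and 108 CPM at Stage C, against 10.5, 24.6 and 10.4 CPM at Stage B (log2 fold change 2.08 ± 0.42 (SE), edgeR adjusted p = 0.00517). Another, matching Myb-related protein 308 (Cluster-20417.262296), an Antirrhinum factor that represses phenolic acid genes when expressed in tobacco, was also higher (log2 fold change 3.06 ± 0.31 (SE), edgeR adjusted p = 8.83e-05), so that the list holds activators and repressors. Subunits of the vacuolar proton pumps, which acidify the compartment where anthocyanin lies, were upregulated in 25 of 150 unigenes and downregulated in 2 at Stage C (12 and 4 on total counts), and their 16 up and 8 down at Stage A turned to 3 and 23 on total counts.

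Scent enzymes were low in the green bud. Terpene synthesis summed to 18.4, 20.6 and 14.9 CPM at Stage B, 53.5, 50.96 and 806 CPM at Stage C and 17159, 15535 and 18363 CPM at Stage A. Flower 3 stood far above the other coloured buds, and the 3 stages did not overlap. Of 72 scent unigenes, 30 were upregulated and 3 downregulated at Stage C (median log2 fold change 2.53), and 38 and 2 at Stage A (median 1.45). Without Stage C flower 3, 24 were upregulated at Stage C and the median was 0.40. Monoterpene synthase 7 (Cluster-20417.193098) had 3.41, 4.77 and 1.48 CPM at Stage B, 12.4, 12.2 and 256 CPM at Stage C and 5263, 4981 and 4975 CPM at Stage A. It was higher in each step (log2 fold change 4.86 ± 1.06 (SE), edgeR adjusted p = 0.00813; log2 fold change 5.76 ± 1.09 (SE), edgeR adjusted p = 0.00191). Myrcene synthase (Cluster-20417.191262), which makes a monoterpene of many floral scents, had 0.384, 0.992 and 0.357 CPM at Stage B, 2.62, 1.78 and 162 CPM at Stage C and 3910.4, 3436 and 5015 CPM at Stage A. Its call at Stage C (log2 fold change 6.58 ± 1.51 (SE), edgeR adjusted p = 0.0107) was lost without Stage B flower 3. Benzenoid enzymes summed to 141, 179 and 171 CPM at Stage B, 1091, 745 and 1702 CPM at Stage C and 3782, 3523 and 2842 CPM at Stage A. At Stage C, 14 of 41 benzenoid unigenes and 16 of 31 terpene unigenes were upregulated.

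Unigenes of cell division were more often downregulated, and those of wall loosening more often upregulated, at Stage C. Of 347 cell division unigenes, 102 were downregulated and 8 upregulated at Stage C, and of 150 histone unigenes, which package new DNA, 47 were down and 4 up. Expansins, which loosen walls, summed to 271, 455 and 595 CPM at Stage B, 2029, 1564 and 3403 CPM at Stage C and 3589.7, 2412 and 1525 CPM at Stage A. The higher mean of Stage A over Stage C was turned round on total counts. Expansin-A8 (Cluster-20417.237543) had 747, 573 and 1205 CPM at Stage C, against 17.9, 19.1 and 11.6 CPM at Stage B (log2 fold change 5.70 ± 0.41 (SE), edgeR adjusted p = 1.44e-05). Xyloglucan endotransglucosylases (XTH), which cut and rejoin wall xyloglucan, were highest at Stage A, with sums of 172, 532 and 1244 CPM at Stage B, 536, 402 and 1600.4 CPM at Stage C and 5651, 5727 and 3989.7 CPM at Stage A, and their Stage C and Stage B sums overlapped. Across expansins and XTH, 36 of 166 unigenes were upregulated and 14 downregulated at Stage C, and 52 and 31 at Stage A, and without Stage C flower 3 the first count was 23. Pectin enzymes were up in 92 and down in 17 of 302 unigenes at Stage C, and up in 24 and down in 71 at Stage A. A probable pectate lyase (Cluster-20417.233873), which cleaves pectin, had 251, 198 and 606 CPM at Stage C, against 27.9, 33.3 and 25.9 CPM at Stage B (log2 fold change 3.60 ± 0.37 (SE), edgeR adjusted p = 9.70e-05).

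Unigenes of water channels and of the cuticle were more often upregulated than downregulated at Stage C, with the upregulated and the downregulated shares of both lists above those over all unigenes. Of 101 aquaporin unigenes, 41 were upregulated and 12 downregulated at Stage C, and 6 and 33 at Stage A. Aquaporin PIP2-4 (Cluster-20417.238902), a channel of the plasma membrane, had 590.3, 619 and 630.2 CPM at Stage B, 1696, 1538 and 3044 CPM at Stage C and 3455, 3481 and 3626 CPM at Stage A (log2 fold change 1.77 ± 0.26 (SE), edgeR adjusted p = 8.07e-04 for Stage C against Stage B). The cell wall invertase CWINV (Cluster-20417.238189), which splits sucrose outside the cell, had 428, 189 and 867 CPM at Stage C, against 29.6, 19.5 and 21.7 CPM at Stage B (log2 fold change 4.39 ± 0.46 (SE), edgeR adjusted p = 1.08e-04). The wider sugar list gave 49 up and 28 down of 302 at Stage C and 62 and 41 at Stage A, but its direction depended on the scaling, with 35 and 42, then 44 and 65, on total counts. Of 393 cuticle and wax unigenes, 114 were upregulated and 46 downregulated at Stage C, and 37 and 139 at Stage A. The wax aldehyde decarbonylase GL1-5 (Cluster-20417.237837) rose at both steps, with 33.6, 46.1 and 31.8 CPM at Stage B, 505, 448 and 1003 CPM at Stage C and 1877, 1721 and 1895 CPM at Stage A (log2 fold change 4.13 ± 0.32 (SE), edgeR adjusted p = 1.89e-05; log2 fold change 1.49 ± 0.29 (SE), edgeR adjusted p = 0.00216). A lipid-transfer protein (Cluster-20417.239027), of a family that carries lipids to the surface, had 1698, 1638 and 948 CPM at Stage B, 9029, 9206 and 12517 CPM at Stage C and 14197, 11775 and 14669 CPM at Stage A (log2 fold change 2.84 ± 0.29 (SE), edgeR adjusted p = 1.01e-04 for Stage C against Stage B).

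Senescence, NAC, hormone and auxin lists had called unigenes at both steps. Of 157 senescence and autophagy unigenes, 63 were upregulated and 13 downregulated at Stage A (median log2 fold change 0.89), after 21 and 7 at Stage C, which became 10 and 11 on total counts. Cysteine proteinase 1 (Cluster-20417.243033), a vacuolar type of protein-degrading enzyme, had 50.7, 53.5 and 43.8 CPM at Stage B, 108, 111 and 144 CPM at Stage C and 389, 368 and 326 CPM at Stage A. It was called higher at both steps (log2 fold change 1.29 ± 0.17 (SE), edgeR adjusted p = 4.72e-04; log2 fold change 1.58 ± 0.17 (SE), edgeR adjusted p = 5.00e-05), and the first call was lost on total counts. NAC transcription factors, some of which drive senescence in other plants, were up in 44 and down in 12 of 143 unigenes at Stage A. The unigene of NAC21/22 (Cluster-20417.221365) had 5.20, 6.26 and 6.57 CPM at Stage B, 32.02, 31.04 and 77.5 CPM at Stage C and 308, 265 and 387 CPM at Stage A (log2 fold change 2.77 ± 0.33 (SE), edgeR adjusted p = 9.09e-05 for Stage A against Stage C). Most abundant per length in the gibberellin list was Snakin-2 (Cluster-20417.159591), a small cysteine-rich peptide of a family that gibberellin regulates, with 0.288, 0.184 and 0.323 CPM at Stage B, 3.15, 2.89 and 42.4 CPM at Stage C and 485, 513 and 795 CPM at Stage A (log2 fold change 5.21 ± 0.91 (SE), edgeR adjusted p = 0.00112 for Stage A against Stage C). Its other members were mixed, and the whole list had 19 up and 18 down of 78 at Stage A, which turned to 15 and 26 on total counts. For ethylene, ACC oxidase 1 (Cluster-20417.221163), which makes the gas, had 96.7, 141 and 13.98 CPM at Stage A, against 5.96, 10.8 and 5.38 CPM at Stage C (log2 fold change 3.51 ± 0.71 (SE), edgeR adjusted p = 0.00286). Open flower 3 lay far below the other open flowers. The ethylene list as a whole was up in 23 and down in 10 of 116 at Stage A, and reversed to 13 and 22 on total counts. Auxin response unigenes were up in 51 and down in 36 of 287 at Stage C (46 and 53 on total counts) and up in 80 and down in 36 at Stage A (72 and 56 on total counts).

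The smallest p-values at Stage C against Stage B, among unigenes with a Swiss-Prot match that moved alike in all 3 partitions, belonged upward to 2 regulators and a desaturase. REVEILLE 8 (Cluster-20417.239527), a clock transcription factor in Arabidopsis, had 346, 295 and 423 CPM at Stage C, against 10.5, 8.58 and 8.64 CPM at Stage B (log2 fold change 5.27 ± 0.22 (SE), edgeR adjusted p = 1.55e-06). The response regulator ORR41 (Cluster-20417.298901), of a family that acts in cytokinin signalling, had 98.2, 84.8 and 130.3 CPM at Stage C, against 0.0384, 0.110 and 0.136 CPM at Stage B (log2 fold change 10.04 ± 0.43 (SE), edgeR adjusted p = 1.55e-06). An omega-6 fatty acid desaturase (Cluster-20417.245750) had 179, 225 and 259 CPM, against 11.9, 9.53 and 11.3 CPM (log2 fold change 4.34 ± 0.19 (SE), edgeR adjusted p = 1.82e-06). These 3 rose without overlap. The hour of collection is not given, and its part in the change of REVEILLE 8 was not tested. In the other direction, a cytosolic fructose-bisphosphate aldolase (Cluster-20417.244712), an enzyme of glycolysis, had 0.0690, 0.384 and 0 CPM at Stage C, against 44.8, 30.1 and 24.8 CPM at Stage B (log2 fold change -7.71 ± 0.57 (SE), edgeR adjusted p = 6.12e-06). A second 3GT-like unigene (Cluster-20417.263831) fell while the main 3GT rose, with 6.62, 8.28 and 9.03 CPM at Stage B, 0.851, 0.812 and 0.606 CPM at Stage C and 0.0996, 0.0312 and 0.0626 CPM at Stage A (log2 fold change -3.39 ± 0.24 (SE), edgeR adjusted p = 7.19e-06). The 3GT unigenes of this cultivar did not share a direction.

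At Stage A against Stage C the same rule named RICE SALT SENSITIVE 3 (Cluster-20417.211091), in rice a regulator of jasmonate responses. It had 4 counts over the 3 coloured buds, and 0.959, 0.900 and 1.24 CPM at Stage B, 0, 0.0451 and 0.0505 CPM at Stage C and 58.9, 44.5 and 46.04 CPM at Stage A (log2 fold change 10.50 ± 0.43 (SE), edgeR adjusted p = 1.13e-08). A retrotransposon-related Pol unigene (Cluster-20417.150632) appeared at anthesis, with 77.2, 54.1 and 73.6 CPM at Stage A, against 0.276, 0.113 and 0.253 CPM at Stage C (log2 fold change 8.31 ± 0.31 (SE), edgeR adjusted p = 9.77e-08). Its mean at Stage A was 23.3 CPM in the tube, against 114 CPM in the outer lobes. An LRR receptor-like kinase (Cluster-20417.234254) was lower at anthesis, with 193, 163 and 206 CPM at Stage B, 188, 178 and 129 CPM at Stage C and 1.10, 1.50 and 1.63 CPM at Stage A (log2 fold change -6.87 ± 0.25 (SE), edgeR adjusted p = 9.75e-08). The wax enzyme 3-ketoacyl-CoA synthase 12 (Cluster-20417.241043), which lengthens fatty acids, peaked in the coloured bud, with 18.3, 20.6 and 19.2 CPM at Stage B, 168, 218 and 84.1 CPM at Stage C and 0.133, 0.0935 and 0.0313 CPM at Stage A. Both changes were called (log2 fold change 3.02 ± 0.30 (SE), edgeR adjusted p = 4.92e-05; log2 fold change -10.80 ± 0.48 (SE), edgeR adjusted p = 9.77e-08). Its Stage A level rests on 8 counts over the 3 flowers. The B-class unigene matching MADS-box factor 16 (Cluster-20417.237862) was also lower at anthesis, with 284, 217 and 259 CPM at Stage B, 308, 534 and 98.8 CPM at Stage C and 4.94, 3.58 and 7.51 CPM at Stage A (log2 fold change -5.88 ± 0.56 (SE), edgeR adjusted p = 1.90e-05). The B-class unigene matching MADS-box factor 2 (Cluster-20417.237353) had 307, 290.3 and 299.6 CPM at Stage A, against 408, 424 and 385 CPM at Stage C.

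The summed photosystem transcripts of the perianth tube stood at a like mean at Stage B and Stage C, when the lobes had lost most of theirs. Summed light harvesting and photosystem unigenes had means of 12534 ± 3034, 12718 ± 4439.9 and 1539 ± 505 CPM in the tube at Stage B, Stage C and Stage A (SD, n = 3 each). In the outer lobes they had 45269 ± 4842, 8843 ± 5033 and 1209 ± 120 CPM, and in the inner lobes 36951 ± 8229, 9538 ± 6041 and 1138 ± 109 CPM. The test of the difference, the tube's change between Stage B and Stage C minus the mean change of the 2 kinds of lobes with the flower as a block (partitions of a flower are paired by dissection), called 112 of 177 of these unigenes higher in the tube and 0 lower. Their median log2 difference was 2.08. Over all 96344 unigenes in that test, 1627 were higher (1.69%) and 470 lower (0.488%; 2.18% in either direction). For Stage A against Stage C the same test called 2 higher and 4 lower of the photosystem unigenes, where 1.89% and 0.541% (2.43% in either direction) were called over all. Fitted in the tube alone, Stage C against Stage B gave 5 upregulated and 4 downregulated members, against 2 and 115 in the outer lobes.

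**Figure D5:**
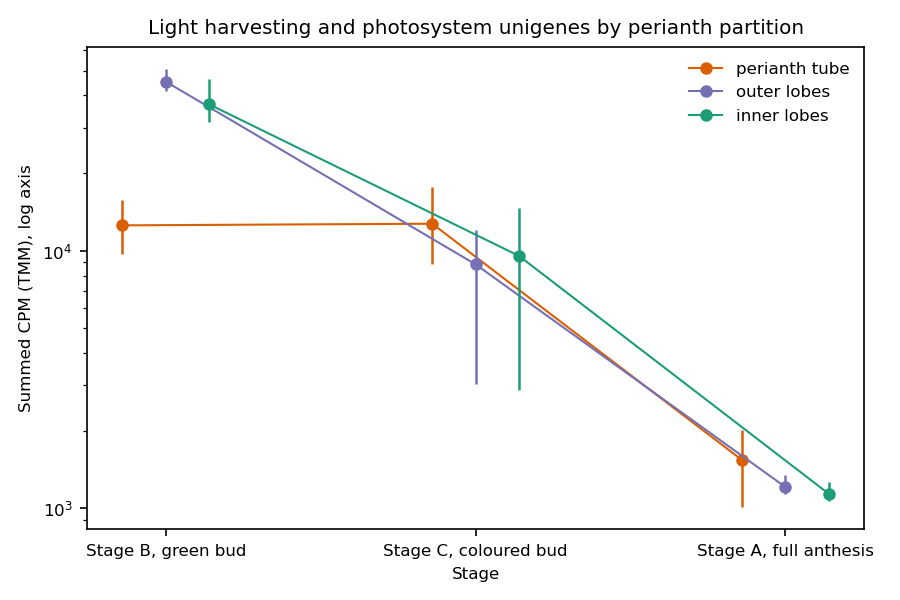
Summed level of the light harvesting and photosystem unigenes in the perianth tube, outer lobes and inner lobes of 'Peter Stuyvesant', in TMM-scaled CPM on a log axis, by stage from green bud (B) to anthesis (A); points are means over 3 flowers and bars run between the lowest and highest flower. The tube holds 12718 CPM at Stage C, close to its 12534 CPM at Stage B, while the outer lobes hold 8843 and 45269 CPM.

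The chlorophyll synthesis list also differed in the tube, with 22 of 48 unigenes higher and 0 lower in the tube's change at Stage C. Protochlorophyllide reductase (Cluster-20417.237869) had a mean of 107 CPM in the tube at Stage C, against 33.5 CPM in the outer and 36.9 CPM in the inner lobes. Its level in the tube was thus lower at Stage C than at Stage B, by less than in the lobes, since at Stage B the tube had 374 CPM, against 857 and 746 CPM in outer and inner lobes (log2 difference 2.81 ± 0.22 (SE), edgeR adjusted p = 2.20e-09). Of the anthocyanin pathway enzymes, 1 of 91 unigenes was higher and 0 lower in the tube's change at Stage C, and 6 and 6 at Stage A. Of the enzymes that decorate and carry the pigment, 3 of 15 were higher and 0 lower at Stage C, and 1 and 0 at Stage A. At Stage A the main DFR unigene (Cluster-20417.239799) had 312 CPM in the tube, against 201 CPM in the outer lobes. At Stage C it had 189 CPM in the tube, against 414 CPM in the outer lobes (log2 difference 1.47 ± 0.31 (SE), edgeR adjusted p = 0.00566, lost without Stage A flower 1 or without the flower as a block). ACC oxidase 1 (Cluster-20417.221163) at Stage A also had a higher mean in the tube, at 156 CPM against 32.5 CPM in the outer lobes. Its call in the tube test at Stage A against Stage C was lost without Stage C flower 1, Stage C flower 2 or Stage A flower 1. It was also lost without the flower as a block. Ribosomal protein unigenes were 56 higher and 1 lower of 747 in the tube at Stage A against Stage C. Their stage test called 93 of 751 downregulated at Stage A, a share below the 13.9% over all unigenes. On total counts it called 290, where 26015 of all 114942 unigenes were downregulated. A fit of the outer lobes called 266, where 11030 of all 73972 were, and a fit of the tube 27, where 8765 of all 77901 were. Without the flower as a block the tube test called 342 unigenes higher and 50 lower at Stage C.

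The stage changes of 'Peter Stuyvesant' were then set against those of the other 6 cultivars. The difference of its change at Stage C against Stage B from the mean change of the other cultivars was called higher for 5158 of 202250 unigenes (2.55%) and lower for 2608 (1.29%; 3.84% in either direction). For Stage A against Stage C it was called higher for 4500 (2.22%) and lower for 3317 (1.64%; 3.87% in either direction). On total counts these were 8028 and 1770, then 3147 and 5615. Leaving out Stage C flower 1 or flower 2 took the number higher at Stage C to 3192 or 3195 and the number higher at Stage A to 2831 or 2391. The test measured the spread between flowers of the same cultivar and stage, not the spread between cultivars. No other cultivar was set against the rest in this way, so whether these counts are unusual for a cultivar was not tested. The paper calls 'China Pink' a sport of 'Delft Blue', so the 6 other cultivars are not all independent.

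Both comparisons share the Stage C flowers, which enter them with opposite sign. These flowers had a mean of 0.312 on the stage axis, against 0.745 in the others, and stages rest on how the bud looked. In the differences given here and below, a trait of the cultivar and buds picked earlier in development cannot be told apart. Green functions were higher in its coloured bud. Of 221 photosystem unigenes, 83 were higher and 0 lower in this difference at Stage C, and 5 higher and 99 lower at Stage A. Light-harvesting proteins alone summed to 1962 to 6805 CPM in the 3 'Peter Stuyvesant' coloured buds, against 358 to 2410.3 CPM (median 1150) in the 18 others, on a scale set over all 63 flowers, and these ranges overlapped. At Stage A the level was low, with an overlap again, at 275 to 428 CPM in 'Peter Stuyvesant', against a median of 608 CPM and a lowest of 401 CPM in the others. Chlorophyll synthesis was at 777 to 1610 CPM in its coloured buds, above all 18 others, of which the highest had 718 CPM. Chlorophyll a-b binding protein 25 (Cluster-20417.238670) was higher in the difference at Stage C (log2 difference 3.71 ± 0.76 (SE), edgeR adjusted p = 0.00132) and lower at Stage A (log2 difference -5.13 ± 0.81 (SE), edgeR adjusted p = 3.36e-05).

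Scent enzymes and part of the pigment route were low in its coloured bud and not at anthesis. Terpene enzymes summed to 49.1, 52.2 and 771 CPM in 'Peter Stuyvesant' coloured buds, against 262 to 9836 CPM in the others. At anthesis they summed to 14581 to 16842 CPM, above every one of the 18 other open flowers, which had 5605 to 12313 CPM. Of 90 scent unigenes 22 were higher and 0 lower in the difference at Stage A, after 1 and 8 at Stage C (1 and 15 without Stage C flower 3). F3H was below all 18 others at Stage C, at 487 to 2396 CPM against 2895 to 8360.4 CPM. F3H1 (Cluster-20417.239532) was lower in the difference at Stage C (log2 difference -2.45 ± 0.66 (SE), edgeR adjusted p = 0.018) and higher at Stage A (log2 difference 2.56 ± 0.66 (SE), edgeR adjusted p = 0.0115). Each call was lost without Stage C flower 1 or flower 2, and the first also without Stage B flower 2. PAL unigenes were higher in 19 and lower in 0 of 42 at Stage A. In 'Peter Stuyvesant' PAL reached 7408 to 8199.7 CPM at that stage, against a median of 3263 CPM in the others.

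Other pigment enzymes were not low. CHS in the coloured bud was at 2718 to 3365 CPM, above 14 and below 2 of the 18 other flowers. DFR at Stage C was at 264 to 1019 CPM within the others' 209 to 2535 CPM. The anthocyanin-type glutathione S-transferases at 129.6 to 135 CPM stood above all 18 others, whose highest was 68.2 CPM. Over the whole anthocyanin list 8 unigenes were higher and 5 lower of 131 in the difference at Stage C (15 and 4 on total counts), and 8 and 9 at Stage A. Cuticle and wax unigenes were 98 higher and 11 lower of 537 at Stage C (92 and 19 without Stage C flower 3). B-class factors summed to 510.1 to 1027 CPM in its coloured buds, above all 18 others, whose highest was 500.2 CPM.

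Single unigenes with the smallest p in this difference came from several functions. WIN1 (Cluster-20417.239899), an activator of cuticle genes in Arabidopsis, had 45.2, 48.02 and 63.9 CPM at Stage B, 26.02, 35.6 and 11.4 CPM at Stage C and 0.664, 0.530 and 0.407 CPM at Stage A. It was higher in the difference at Stage C (log2 difference 4.84 ± 0.40 (SE), edgeR adjusted p = 5.86e-12) and lower at Stage A (log2 difference -4.33 ± 0.47 (SE), edgeR adjusted p = 6.44e-08). GTP cyclohydrolase 1 (Cluster-20417.241760), which opens folate synthesis, had 196, 252 and 188 CPM at Stage B, 113, 92.4 and 52.3 CPM at Stage C and 9.29, 10.1 and 11.3 CPM at Stage A (log2 difference 2.51 ± 0.29 (SE), edgeR adjusted p = 6.23e-08 at Stage C; log2 difference -3.09 ± 0.30 (SE), edgeR adjusted p = 3.28e-09 at Stage A). A 14-3-3 protein (Cluster-20417.164567), a binder of phosphorylated proteins, had 2.49, 4.19 and 3.56 CPM at Stage B, 6.30, 6.27 and 11.02 CPM at Stage C and 105, 101 and 124 CPM at Stage A. It was lower at Stage C (log2 difference -3.73 ± 0.38 (SE), edgeR adjusted p = 4.10e-09) and higher at Stage A (log2 difference 2.86 ± 0.37 (SE), edgeR adjusted p = 1.26e-06) in the difference. Others stood out at anthesis. Cytochrome P450 CYP72A616 (Cluster-20417.236985) had 12.9, 12.03 and 9.97 CPM at Stage B, 14.999, 13.2 and 29.6 CPM at Stage C and 134, 127 and 143 CPM at Stage A. Its log2 fold change was 2.76 in 'Peter Stuyvesant' at Stage A against Stage C in the fit over all 63 flowers, and those of the other cultivars lay between 0.17 and 0.60 (log2 difference 2.42 ± 0.20 (SE), edgeR adjusted p = 1.75e-11). Laccase-3 (Cluster-20417.148369), of a family that oxidises phenolics, had 0.268, 0.0735 and 0.136 CPM at Stage B, 0.0230, 0.203 and 0.682 CPM at Stage C and 28.1, 41.3 and 136 CPM at Stage A (log2 difference 7.37 ± 0.76 (SE), edgeR adjusted p = 3.28e-09). Norbelladine 4'-O-methyltransferase (Cluster-20417.237887), in amaryllis relatives an enzyme of alkaloid synthesis, had 122, 83.2 and 129 CPM at Stage B, 126, 104 and 249 CPM at Stage C and 1357, 1310 and 1507 CPM at Stage A (log2 difference -2.35 ± 0.26 (SE), edgeR adjusted p = 2.97e-08 at Stage C; log2 difference 2.54 ± 0.26 (SE), edgeR adjusted p = 2.34e-08 at Stage A).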

How the data were processed

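Perianth RNA of 9 'Peter Stuyvesant' flowers was sequenced (poly-A libraries) in 27 libraries, 3 per flower. No genome was used: per the submitters' notes and the study's methods, the authors assembled the reads with Trinity and CORSET into 494326 unigenes, used Bowtie for alignment and RSEM for counting (versions are not given in the sources used here). The authors deposited expected counts per unigene, FPKM per unigene, read counts per library with the text of the mapped number and percent, and annotation columns, in which 98561 unigenes have a Swiss-Prot match. FPKM served only for the stage axis, on log2(FPKM + 1) of unigenes with a mean of at least 1, and to choose the most abundant unigenes.

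Expected counts were rounded, summed over a flower's 3 partitions and tested with edgeR 4.0.16 (quasi-likelihood, TMM, R 4.3.3) on unigenes that reached 10 counts in 3 or more flowers. A call needed a Benjamini-Hochberg adjusted p under 0.05 over all tested unigenes and an absolute log2 fold change over 1. The tube was set against the lobes with libraries as units and the flower as a block, and the other cultivars in 1 fit of 63 flowers. The 32 lists were drawn by words in the Swiss-Prot description, and members and lists were chosen with earlier results of these data known. Named unigenes were the tested 2 with the highest mean FPKM per list (1 per enzyme for the anthocyanin route), and per comparison of stages or of cultivars the 3 smallest p-values in each direction among called unigenes with a Swiss-Prot match, for stages only those that moved alike in all 3 partitions. Alternatives were DESeq2 1.42.0, its size factors in edgeR, edgeR's own filter, no filter, the older quasi-likelihood fit, 27 libraries as replicates, a flower number block, single partitions, each flower left out, a pseudocount of 0.1 and, chosen after seeing the data, total counts without TMM. On simulated counts of 20000 unigenes with 200 changed 4-fold, the stage fit recovered 91.5% with 13 false calls, the tube fit 48.5% and the cultivar fit 81.5%. The simulation gave all unigenes the same spread (a dispersion of 0.1) and changed only those with higher counts. It drew libraries independently, with no effect of the flower, so these shares hold for that setting only.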

Additional observations from a re-analysis of the deposited data

Results flagged for a closer look

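The stage change of the perianth tube differed from that of the lobes, by a test of the difference itself, in 2097 unigenes in either direction at Stage C against Stage B and in 2338 at Stage A against Stage C. The stage change of 'Peter Stuyvesant' differed from the mean change of the other 6 cultivars, by a test of the difference itself, in 7766 unigenes at Stage C against Stage B and in 7817 at Stage A against Stage C. That test did not take in the spread between cultivars.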

How the results depend on the processing

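For Stage C against Stage B, single partitions called fewer unigenes, with 4147 up and 4083 down in the inner lobes and 4426 up and 3579 down in the tube. For Stage A against Stage C, the numbers up were 7845 (outer lobes), 8278 (inner lobes) and 7444 (tube), and 8765 were down in the tube. On total counts the first step gave 5230 up and 14528 down and the second 8656 up and 26015 down, and in the difference from the other cultivars 8028 were higher at Stage C and 5615 lower at Stage A. The causes were not tested. DESeq2 called 8214 and 8681, then 14025 and 16766. Without the flower as a block the tube test called 342 and 50 at Stage C, then 366 and 95.

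Leaving out 1 flower at a time gave 5489 to 8298 up and 4445 to 9477 down at Stage C, and 10382 to 13888 up and 12975 to 16053 down at Stage A. The tube test gave 969 to 2027 higher and 238 to 759 lower at Stage C, and 1033 to 2318 and 318 to 677 at Stage A. The difference from the other cultivars gave 3192 to 5290 and 1301 to 3181 at Stage C, and 2391 to 5132 and 1824 to 3666 at Stage A. The extremes of the tube test at Stage C came without Stage C flower 3 (969 and 238) and, for the highest number lower, without Stage A flower 3 (759), and 298 were lower without Stage B flower 1. At Stage A the tube test gave 1033 and 326 without Stage C flower 1, 1101 and 342 without Stage C flower 2, 1103 higher without Stage A flower 1, and 1118 and 318 without Stage A flower 2. Numbers lower in the cultivar difference were 1486 and 1301 at Stage C without Stage C flower 1 or 2, and 1878 and 1824 at Stage A without Stage C flower 2 or Stage A flower 3.

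No pairing of the flowers of different stages by number was seen: 9 same-numbered pairs had deviations correlated at -0.21 to 0.146 across unigenes, 1 of them over 0.1, and 6 of 18 matches were best with the own number. With 3 flowers at each stage this check could miss a weak pairing. With the flower number as a replicate block 7417 and 7778 were called at Stage C, 13068 and 15051 at Stage A. The cultivar difference gave 5240 and 2649, then 4585 and 3367. The stage axis difference was -0.44 with a pseudocount of 0.1 and -0.42 without a filter. Of 3099 values of 189 named unigene results under the alternatives, 2933 kept their side of the threshold and direction, 166 lost the call and 0 reversed. These unigenes were chosen by level or small p in the same data, so this tally does not stand for all calls. Of all calls at Stage C against Stage B that could be compared, DESeq2 kept 95.1%. A fit without Stage C flower 3 kept 63.6% and a fit of the tube alone 51.2%, with 4 reversed in the tube. The tube test at that step kept 18.7% of its calls without the flower as a block. Unigenes with a few counts in a stage have fold changes that rest on those counts.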

Other observations

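Lists not described above gave mixed counts. Carotenoid synthesis and cleavage, which makes and cuts yellow pigments, had 12 up and 12 down of 59 unigenes at Stage C against Stage B, and 9 and 5 at Stage A against Stage C. Its unigene of carotenoid cleavage dioxygenase (Cluster-20417.242942), which cuts carotenoids into volatile ketones, had 112, 98.4 and 87.7 CPM at Stage B, 99.4, 106 and 109 CPM at Stage C and 333, 314 and 348 CPM at Stage A (for Stage A against Stage C, log2 fold change 1.66 ± 0.15 (SE), edgeR adjusted p = 1.70e-05). Lignin and secondary wall unigenes were 4 up and 1 down of 75 at Stage C, and 9 and 21 at Stage A. Against that count, caffeoyl-CoA O-methyltransferase 1 (Cluster-20417.233564), which methylates lignin precursors, rose to 179, 168 and 143 CPM at Stage A, against 13.2, 12.4 and 18.7 CPM at Stage C (log2 fold change 3.47 ± 0.28 (SE), edgeR adjusted p = 6.87e-06). The flavonol and flavan branch, which competes for anthocyanin precursors, had 0 up and 0 down of 8 at Stage C, and 2 and 0 at Stage A.

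E-class and AGL6 MADS-box factors, partners of the B-class factors, had 0 up and 2 down of 19 unigenes at Stage C and 6 and 0 at Stage A, while B-class factors had 1 and 4 of 9 at Stage A. Lipid-transfer proteins had 12 up and 9 down of 37 at Stage C, and 10 and 8 at Stage A. Cell division unigenes had 23 up and 82 down of 347 at Stage A. Histones had 9 and 7 of 150 there (8 and 22 on total counts). Gibberellin unigenes had 15 up and 6 down of 78 at Stage C. At the same step, ethylene unigenes had 6 and 2 of 116 (4 and 10 on total counts). NAC factors had 15 and 16 of 143 at that step (13 and 29 on total counts). Of 3683 unigenes whose best match names an arthropod, 109 passed the count filter, and 2 were up and 2 down at Stage C and 13 up and 6 down at Stage A. In the difference from the other cultivars, the unigene of magnesium-protoporphyrin IX monomethyl ester cyclase (Cluster-20417.227248), a step of chlorophyll synthesis, was higher at Stage C (log2 difference 1.93 ± 0.30 (SE), edgeR adjusted p = 2.49e-05) and lower at Stage A (log2 difference -3.08 ± 0.33 (SE), edgeR adjusted p = 6.44e-08).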
